A study of Homo sapiens with 22 samples.

Results

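Very long genes are here the autosomal protein-coding genes whose span in the GENCODE annotation of GRCh38, measured as the end minus the start of the gene record, is at least 500 kb. Symbols beginning with SLC, SEMA, EPH or COL were left out. The deposited table held 306 such genes before and 297 after that exclusion, of 17874 autosomal protein-coding genes and 36859 genes in all. Of the 297 members, 218 (73.4%) had 2 or more libraries with no fewer than 10 normalized counts and were tested, against 70.2% of autosomal protein-coding genes. Among the 79 members below that minimum, 20 were at 0 in every library and 59 had some counts.

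The study profiled poly(A) RNA of RPTEC, human renal proximal tubule epithelial cells immortalized with hTERT, in 22 libraries of 11 groups with 2 libraries each. In medium with 2% fetal bovine serum were the WT cells, WT cells given TGF-β at 10 ng/ml over 72 h, the knockout clones of SETD2 (KO1 and KO2), and the libraries labelled KO2 rescue. In medium with 10% serum were Rescue1 and Rescue2, clones with SETD2 put back, and lines made from WT by lentivirus with eGFP (the control vector), SOX2, OCT2 or PRRX1. All lines carry hTERT under G418 selection. KO1 and KO2 are single clones edited in exon 3 of SETD2 with CRISPR/Cas9, the rescue clones are single colonies of KO cells that carry FLAG-tagged full-length SETD2 from a lentivirus under blasticidin, and the other transduced lines are bulk cells selected with puromycin. Serum differs between the rescue clones and the KO clones, and between the eGFP line and WT, so that serum and genotype or vector cannot be told apart in those comparisons. A library held 11674491 to 16758645 normalized counts over 14082 to 16115 genes above 0. Nothing states that the 2 libraries of a group came from separate cultures, and the p-values measure only the spread between these libraries.

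SETD2 is the methyltransferase that trimethylates lysine 36 of histone H3 (H3K36me3). It travels with elongating RNA polymerase II, so that the mark accumulates along the bodies of transcribed genes and is linked to splicing and to the silencing of starts inside genes. Very long genes take hours to transcribe, consist almost wholly of introns, and include many genes for synaptic, adhesion and channel proteins that are best known in neurons, as well as several that lie at common fragile sites. The counts analysed here are sums over mature transcripts of a gene and do not show how much of a span was transcribed, nor which start was used.

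The members spanned 501 to 2474 kb with a median of 736 kb. Their longest annotated transcript had a median of 7.09 kb and filled 0.890% of the span, against 11.6% over autosomal protein-coding genes. The median of the longest intron was 199 kb (8.25 kb over autosomal protein-coding genes), that of the exon number 17 (against 8), and the GC content of the longest transcript 43.9% (against 48.6%). In total the members took between 0.526% and 0.783% of the normalized counts of a library. WT held 0.572% and 0.643%, the TGF-β libraries 0.549% and 0.526%, KO1 0.574% and 0.629%, KO2 0.717% and 0.740%, and the eGFP line 0.766% and 0.775%. A few genes carried much of this share. Without the 5 most abundant members it was 0.465% and 0.497% in WT, 0.384% and 0.433% in KO1, 0.497% and 0.519% in KO2, and 0.519% and 0.515% in the eGFP line. KO1 then lay below both WT libraries, and KO2 replicate 1 no longer lay above both. The most abundant members by mean over all libraries were CDH13 (9072 normalized counts), PTPRM (6510), LPP (4792) and THSD4 (4142), which code for a cadherin, a receptor tyrosine phosphatase, a focal adhesion protein and a matrix protein.

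The promoters of the members with the 3 largest rises and the largest fall in both KO clones are shown for orientation, because the values below are set at gene level and these genes had the largest differences. Each is the 250 bases before the RefSeq start in GRCh38.p14, on the strand of the gene, with CG dinucleotides in capitals. They lie at chr1:58546727-58546976 (minus strand) for DAB1, chr1:34165843-34166092 (minus strand) for CSMD2, chr7:103989659-103989908 (minus strand) for RELN and chr6:71886300-71886549 (plus strand) for RIMS1. The counts do not show whether these starts were used in the cells. The canonical transcript of DAB1 is shorter than its gene record, so its start may lie elsewhere.
DAB1: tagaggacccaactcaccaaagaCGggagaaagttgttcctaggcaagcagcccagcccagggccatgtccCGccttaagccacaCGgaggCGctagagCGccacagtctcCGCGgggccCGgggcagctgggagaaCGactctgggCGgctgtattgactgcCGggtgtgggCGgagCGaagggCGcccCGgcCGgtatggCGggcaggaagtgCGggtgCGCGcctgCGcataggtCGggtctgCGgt
CSMD2: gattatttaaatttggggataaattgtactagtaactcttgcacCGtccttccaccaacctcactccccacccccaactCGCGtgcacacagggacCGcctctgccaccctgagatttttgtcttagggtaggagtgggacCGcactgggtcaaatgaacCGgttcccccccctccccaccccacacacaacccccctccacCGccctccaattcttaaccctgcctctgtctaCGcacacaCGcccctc
RELN: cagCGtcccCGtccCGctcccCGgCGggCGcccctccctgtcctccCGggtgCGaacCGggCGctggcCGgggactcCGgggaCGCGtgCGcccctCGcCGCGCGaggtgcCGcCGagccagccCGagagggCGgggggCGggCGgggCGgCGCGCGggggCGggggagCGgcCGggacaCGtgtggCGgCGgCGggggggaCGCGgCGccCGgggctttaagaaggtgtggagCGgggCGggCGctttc
RIMS1: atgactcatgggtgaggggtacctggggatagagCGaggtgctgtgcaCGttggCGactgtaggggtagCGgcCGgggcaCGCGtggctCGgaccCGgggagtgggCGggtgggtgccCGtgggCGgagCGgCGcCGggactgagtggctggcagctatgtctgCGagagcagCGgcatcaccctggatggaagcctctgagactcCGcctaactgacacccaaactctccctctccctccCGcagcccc
The 4 windows held 23 (DAB1), 9 (CSMD2), 43 (RELN) and 19 (RIMS1) CG dinucleotides, so that the rising genes included both the richest and the poorest. Such a window was found for 243 of the 297 members, with a median of 16 CG, against 18 in 13785 autosomal protein-coding genes. At least 20 CG stood in 44.4% of the members' windows and in 44.7% of all of them. The median was 18 in the 27 windows of members called higher in both KO clones and 19.5 in the 8 of members called lower in both.

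SETD2 itself was measured in every library first. It stood at 1852 and 2061 normalized counts in WT, 1046 and 1130 in KO1, and 1050 and 1052 in KO2. All 4 KO libraries lay below both WT libraries, with a log2 difference of -0.87 ± 0.059 (SE, adjusted p = 1.98e-08), which stayed under the 2-fold size asked of a call. The counts do not read the edited sequence. The libraries labelled KO2 rescue held 834 and 820, below KO2 (log2 -0.35, adjusted p = 0.0038), so that SETD2 went against that label. Rescue1 held 10240 and 10369 and Rescue2 10445 and 9764, and the eGFP line 3128 and 2947.

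Here and below, a gene is called where the limma test, run on log2(normalized count + 1) and adjusted by Benjamini-Hochberg over 14585 genes, gives an adjusted p below 0.05 with more than 1 log2 unit of change in either direction. Fold changes are on that scale and are understated for low genes. Where both libraries of a group are at 0, the fold is given as a lower bound against a floor of 3 reads per library. A member with no reads in WT enters the test only through a group in which it is high, so its call could only be upward. Of the 218 tested members, 21 had at most 3 reads in both WT libraries.

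The comparison of the KO clones with WT asks whether very long genes are lower without SETD2. In the mean of both KO clones against WT, 53 of the 218 tested members (24.3%) rose and 20 (9.17%) fell, beside 10.7% and 10.5% of all genes tested. The members' median log2 difference was 0.22, against -0.01 over all genes, and 109 of them had an unadjusted p under 0.05, beside 6708 of the 14585 genes. More members were therefore called than among all genes, on the higher side only. When all libraries were instead brought to one total, 45 were called higher and 34 lower (57.0% of the members' calls higher instead of 72.6%, and 33.97% instead of 50.6% over all genes). On that scale the median of all genes moved to -0.32 and that of the members to -0.08, so that the members' median stayed above that of all genes while its sign turned. On the deposited scale, which holds low and moderate counts close together, the same fit called 2 members higher and 0 lower. The counts given here therefore belong to the scale of normalized counts.

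The share called higher was larger in the wider classes of span. It was 10.2% under 10 kb (n = 2061), 9.24% at 10 to 50 kb, 10.2% at 50 to 100 kb, 12.4% at 100 to 200 kb and 16.3% at 200 to 500 kb (n = 882). Among the members it was 23.2% at 500 to 1000 kb (n = 177) and 29.3% from 1000 kb (n = 41), with median log2 differences of 0.16 and 0.72. The share called lower went from 9.95% under 10 kb to 13.2% at 200 to 500 kb, and was 9.04% and 9.76% in the members' classes. These are descriptions, since genes are not replicates.

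**Figure D1:**
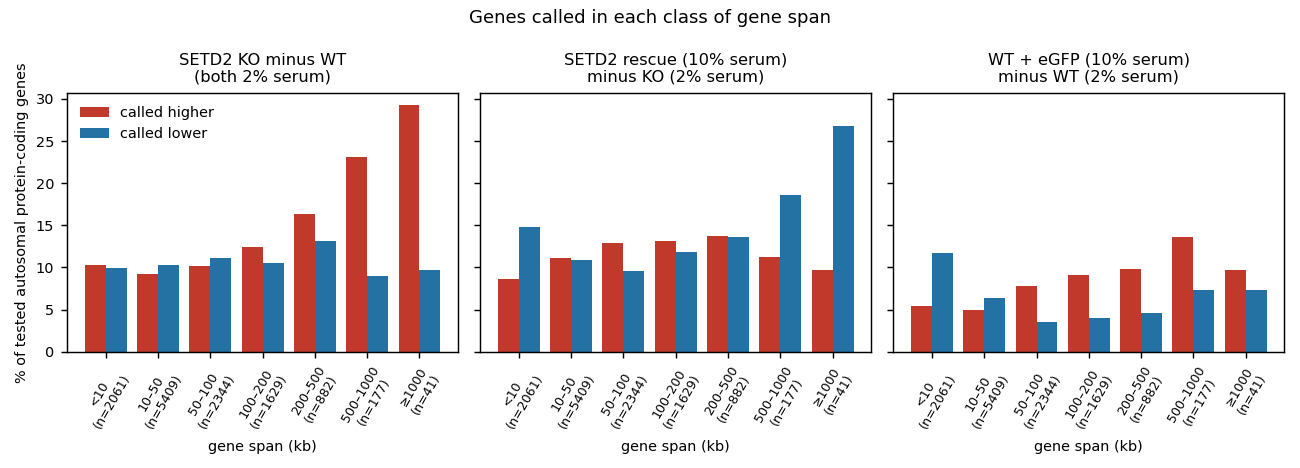
Percent of tested autosomal protein-coding genes called higher (red) or lower (blue) in classes of gene span in kb, with the number of genes in brackets, for both KO clones against WT, the rescue clones against the KO clones, and the eGFP line against WT. Called-higher bars climb to 29.3% in the widest class of the first panel, called-lower bars to 26.8% in that of the second, and in the third the 2 directions cross between the narrowest class and the members.

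Part of the span pattern lay in members of low count. From 1000 kb, 8 of 20 tested members with a mean of 10 to 100 normalized counts rose and 1 fell (median log2 difference 1.16), 1 of 9 with 100 to 1000 rose and 1 fell (median -0.03), and 1 of 4 with at least 1000 rose and 2 fell (median -0.55). Over both classes, of the 83 tested members with a mean of 10 to 100 normalized counts, 22 rose and 7 fell with a median log2 difference of 0.39. Of the 78 with 100 to 1000, 17 rose and 9 fell (median -0.05), and of the 25 with at least 1000, 5 rose and 2 fell (median 0.17). These classes, here and from 1000 kb, leave out tested members with a mean under 10. The class of 10 to 100 is given without the share of all genes at that level. Over all 103 tested members with at least 100, 21.4% were called higher and 10.7% lower with a median of 0.03, against 9.69%, 10.7% and -0.02 in the 8276 genes of that level. The share called higher was thus above that of all genes at this level too, while the median was close to 0.

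Taken apart, KO1 had 46 members higher and 30 lower than WT (background 12% and 13.1%) and KO2 had 47 higher and 15 lower (background 9.02% and 7.29%). The members' median was 0.12 in KO1 and 0.38 in KO2. The KO1 median rested on 1 library: without KO1 replicate 2 it was -0.08. With the same total per library the calls were 42 and 44 in KO1 (48.8% of the members' calls higher instead of 60.5%, and 27.9% instead of 47.7% over all genes). They were 44 and 22 in KO2 (66.7% instead of 75.8%, and 41.5% instead of 55.3% over all genes). In both clones, 34 members (15.6%) were called higher, beside 6.95% of all genes, and 11 (5.05%) lower, beside 5.73%. In all 45 the 4 KO libraries lay beyond both WT libraries, which a call in both clones against the same WT libraries nearly ensures. In opposite directions 0 members were called. Both are descriptions, given without the share over all genes. Of the 41 tested members from 1000 kb, 12 rose and 2 fell in both clones.

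**Figure D2:**
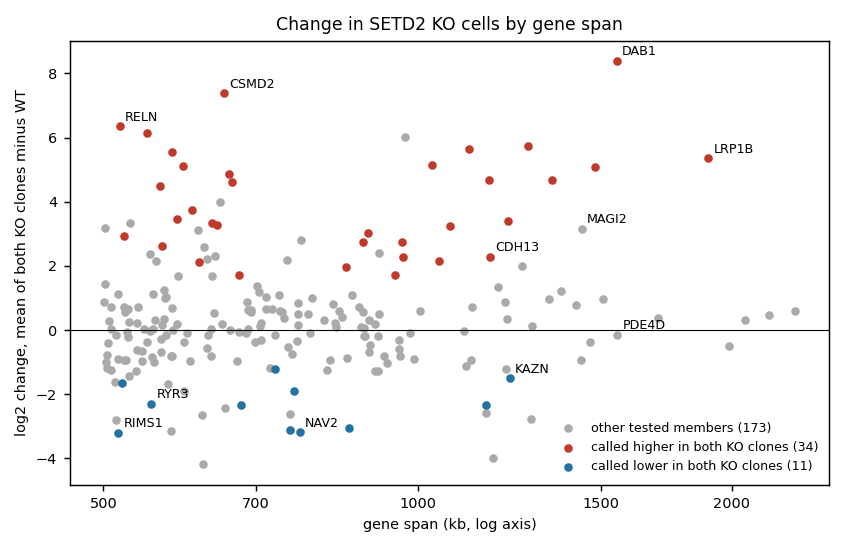
Log2 difference of the mean of both KO clones minus WT (vertical axis, on the log2(normalized count + 1) scale) by gene span in kb (log axis) for the 218 tested members, each point a gene. Members called higher in both clones (34, red) have spans from 518 to 1899.6 kb, and those called lower in both (11, blue) lie between -1.22 and -3.20.

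Among proteins of adhesion and of synapses, with their adaptors, 48 are members and 29 were tested, of which 13 rose and 2 fell in the KO clones. In both clones 11 rose and 0 fell. Of all genes tested, 10.7% rose and 10.5% fell in the KO clones, and 6.95% and 5.73% did so in both. DAB1, the adaptor that carries the reelin signal into the cell (1:56994778-58546734), had 0.879 and 0 normalized counts in WT, 697 and 651 in KO1, 317 and 308 in KO2, and 0 in all 4 libraries of the rescue clones. The KO clones lay far above every WT and rescue library (log2 8.39 ± 0.66 SE over WT, adjusted p = 1.06e-07), and the rescue clones were at least 147-fold lower than KO. The canonical transcript of DAB1 spans 429 kb, less than the gene record. In both libraries of either KO clone DAB1 was thus high, at a level not seen in another group.

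CSMD2, a large transmembrane protein with CUB and sushi domains (1:33513998-34165842), was at 0 in both WT libraries. It had 215 and 121 normalized counts in KO1 and 171 and 170 in KO2 (a rise of at least 64.2-fold, adjusted p = 1.78e-05). LINGO2, a leucine-rich repeat protein of the neuronal surface, went from 0 and 0 to 51.6 and 53.9 in KO1 and 50.6 and 54.5 in KO2 (at least 19.9-fold, adjusted p = 3.10e-07). LRP1B, a member of the LDL receptor family and one of the widest genes (2:140231423-142131016), went from 0 and 0 to 56.3 and 53.8 in KO1 and 23.3 and 36.6 in KO2 (at least 16.1-fold, adjusted p = 2.93e-05). These 3 genes were thus not detected in WT and present in every KO library.

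CDH13, an unusual cadherin anchored in the membrane by lipid (16:82626965-83800640), was already abundant and rose in all KO libraries, from 2558 and 3446 in WT to 16578 and 16037 in KO1 and 12964 and 12753 in KO2 (log2 2.29 ± 0.09 SE, adjusted p = 4.53e-11). It was also higher in the eGFP line (10179 and 9905) and between WT and KO in the rescue clones (7408 to 8494). NTM, of the IgLON family of adhesion proteins, went from 609 and 273 to 2648 to 2985 in the KO libraries (log2 2.75 ± 0.21, adjusted p = 6.27e-08). ROBO1, the receptor for the guidance factor SLIT, went from 4.50 and 1.62 to 70.8 to 135 (log2 4.69 ± 0.92, adjusted p = 0.00080). The members of this list that fell in the KO clones as a whole were TENM2, a teneurin, and KIRREL3, an immunoglobulin-domain protein. Neither was called in both clones, and TENM2 lost its call without WT replicate 1 (log2 -2.10, adjusted p = 0.14). RELN, which codes for the secreted guidance protein reelin and stands on no list (7:103471381-103989658), had 73.5 and 5.41 in WT, 626 and 987 in KO1 and 3936 and 4198 in KO2 (log2 6.35 ± 0.66, adjusted p = 1.93e-06). The WT libraries differed widely from each other, but both stayed below every KO library.

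**Figure D3:**
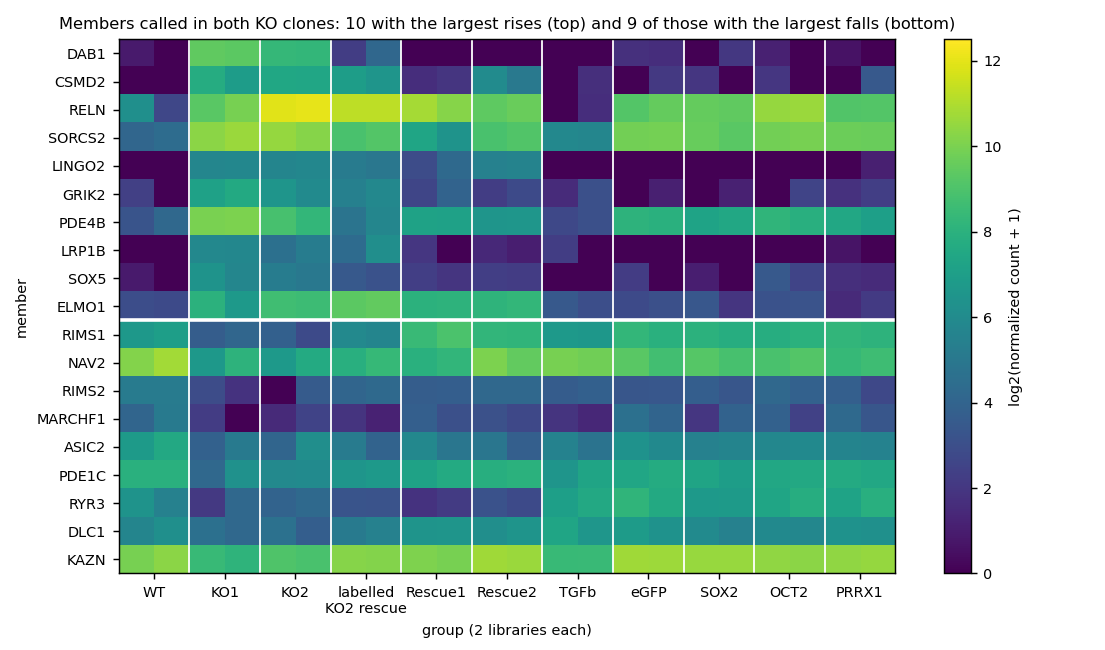
Colour gives log2(normalized count + 1) in each of the 22 libraries (columns, 2 per group) for the 10 members with the largest rises (upper rows) and 9 of those with the largest falls (lower rows) among those called in both KO clones. DAB1 is near 0 outside KO1, KO2 and the libraries labelled KO2 rescue, while SORCS2, PDE4B and RELN are high in the KO clones and in the 4 lines transduced with eGFP, SOX2, OCT2 or PRRX1.

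Of channels, neurotransmitter receptors and sorting receptors, 23 are members and 14 were tested. In the KO clones 6 rose and 2 fell, beside 10.7% and 10.5% of all genes tested. SORCS2, a sorting receptor of the sortilin family, had 16.4 and 20.5 normalized counts in WT, 1295 and 1593 in KO1 and 1474 and 1182 in KO2 (log2 6.15 ± 0.20 SE, adjusted p = 6.29e-12). It was also high in the eGFP line (916 and 956), whose genotype is WT. GRIK2, a kainate receptor subunit, went from 4.13 and 0 in WT to 144 and 194 in KO1 and 90.9 and 61.9 in KO2 (log2 5.64 ± 0.82, adjusted p = 5.84e-05). CACNA2D3, an auxiliary subunit of calcium channels, was expressed in WT (128 and 121) and rose to 340 to 456 (log2 1.73 ± 0.23). On the lower side, RYR3, a calcium release channel of internal membranes, went from 83.5 and 43.7 to 3.28 and 17.5 in KO1 and 15.0 and 18.6 in KO2 (log2 -2.29 ± 0.49, adjusted p = 0.0018). The 2 groups did not overlap for any of these.

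Of signalling enzymes and their regulators, 25 are members and 20 were tested. Of these 4 rose and 1 fell, beside 10.7% and 10.5% of all genes tested. PDE4B, a phosphodiesterase that degrades cyclic AMP, went from 8.53 and 17.6 in WT to 1024 and 1036 in KO1 and 469 and 313 in KO2 (log2 5.56 ± 0.31, adjusted p = 1.87e-09). ELMO1, which with DOCK1 forms an activator of the GTPase Rac, went from 6.88 and 6.05 to 264 and 106 in KO1 and 408 and 379 in KO2 (log2 5.11 ± 0.43, adjusted p = 2.03e-07). DOCK1 itself was high and not called, with 2052 and 2115 in WT and 1840 to 2627 in the KO libraries (log2 0.05 ± 0.065, adjusted p = 0.62). PDE1C, another phosphodiesterase, fell from 245 and 243 to 17.9 to 79.0 (log2 -2.33 ± 0.40, adjusted p = 0.00029).

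Scaffold and polarity proteins were split evenly: of 24 members 21 were tested, 3 rose and 3 fell. Over all genes tested the shares were 10.7% and 10.5%. ANK2, an ankyrin that ties membrane proteins to the spectrin skeleton, went from 33.0 and 13.3 to 346 to 594 in the KO libraries (log2 4.49 ± 0.57, adjusted p = 1.43e-05), and CADPS2, which primes vesicles for secretion, and PARD3B, a polarity protein, also rose. RIMS1 and RIMS2, the scaffolds of vesicle release sites, both fell. RIMS1 (6:71886550-72403150) had 99.5 and 126 normalized counts in WT and 12.1, 16.4, 13.3 and 6.004 in the KO libraries (log2 -3.20 ± 0.27, adjusted p = 2.25e-07). NAV2, a protein of growing microtubules, fell from 1165 and 1752 to 101 and 271 in KO1 and 108 and 198 in KO2 (log2 -3.19 ± 0.34, adjusted p = 2.59e-06).

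Transcription factors and chromatin proteins had 23 members with 22 tested, of which 4 rose (SOX5, SOX6, FOXP2 and TSHZ2) and 0 fell by the limma test. The share over all genes tested, here and for the groups below, was 10.7% higher and 10.5% lower. SOX6 and TSHZ2 rested on 1 library, since without WT replicate 1 their log2 differences were 1.31 and 2.35 (adjusted p = 0.35 and 0.076). SOX5 went from 0.881 and 0 to 84.6 and 52.5 in KO1 and 37.4 and 31.2 in KO2 (log2 5.15 ± 0.63, adjusted p = 9.99e-06). FOXP2, a forkhead factor, went from 4.72 and 4.89 to 59.99 to 108 (log2 3.75 ± 0.43, adjusted p = 4.84e-06). Of receptor tyrosine phosphatases, receptor tyrosine kinases and their ligands, 8 of 12 members were tested, of which PTPRN2, PTPRG and FGF12 rose and NRG1, the ligand neuregulin, fell. PTPRG rested on 1 library, since without WT replicate 1 its log2 difference was 0.53 (adjusted p = 0.27). Both tested RNA-binding members of 5 were not called, RBMS3 among them (639 and 437 in WT, 158 to 343 in the KO libraries, log2 -0.94 ± 0.24, adjusted p = 0.0054, and -1.26 with the same total per library, which is past the 2-fold size). Of the 138 members on no list, 102 were tested, 20 rose and 11 fell.

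The remaining members with the largest falls were of mixed function. KAZN, kazrin of the desmosome, had 974 and 1262 in WT and 278 to 531 in KO (log2 -1.49 ± 0.10, adjusted p = 2.42e-08). DLC1, a gene often lost in liver cancer, had 50.8 and 73.1 against 12.1 to 24.6 (log2 -1.65 ± 0.34, adjusted p = 0.0013). ASIC2, an acid-sensing channel, and MARCHF1, a membrane ubiquitin ligase, fell too (log2 -2.33 and -3.04), but each lost its call without WT replicate 2 (adjusted p = 0.075 and 0.072).

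Some of the widest members with a mean of at least 100 normalized counts over all libraries were not called. NRXN3, a presynaptic adhesion protein of 1698 kb, had 142 and 214 normalized counts in WT and 187 to 270.3 in KO (log2 0.39 ± 0.20, adjusted p = 0.14). PDE4D, of 1553 kb, had 937 and 484 in WT and 536 to 683 in KO (log2 -0.14 ± 0.19, adjusted p = 0.60), and its WT libraries enclosed all KO libraries. TBC1D5, a Rab regulator of 1288 kb, had 1659 and 2215 against 1545 to 2349 (log2 0.12 ± 0.14, adjusted p = 0.55). MAGI2, a scaffold of 1437 kb, was low in WT. It had 20.3 and 4.38 in WT and 40.2 to 191 in KO (log2 3.16 ± 1.55, adjusted p = 0.13), and 1 library of the SOX2 line held 3092 against 8.23 in the other. None of these 4 was called by the limma test.

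A gain from at most 3 reads in both WT libraries to at least 10 normalized counts in all 4 KO libraries was seen for 8 of the 218 tested members (3.67%), beside 0.932% of all genes tested. These were LRP1B, DAB1, CCSER1, LRRC4C, LINGO2, SOX5, TENM3 and CSMD2. The count uses no fit, but it depends on the filter. A gene this low in WT is tested only through groups in which it is higher, so these shares are a description only. CCSER1, a coiled-coil protein gene of 1478 kb, had 0 and 0 in WT and 15.9 to 44.8 in the KO libraries. The reverse was met by 0 members, beside 0.48% of all genes tested. At most 3 reads in both WT libraries were held by 21 of the 218 tested members, beside 801 of the 14585 genes (5.49%).

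Common fragile sites are regions that break when replication is slowed, and many lie in very long genes. Of 32 members listed at such sites 26 were tested, of which 7 rose (LRP1B, DAB1, CCSER1, CDH13, PARD3B, VPS13B and PTPRG) and 2 fell (DPYD and NBEA). Over all 218 tested members, these 26 included, 53 rose and 20 fell. The median log2 difference was 0.58 for the listed genes and 0.22 for all tested members. Whether the listed genes differ from the other members was not tested. Of all genes tested, 10.7% rose and 10.5% fell. VPS13B, a lipid transfer protein, had 1127 and 1069 normalized counts in WT and 2130 to 2638 in KO (log2 1.09 ± 0.084, adjusted p = 7.89e-08). With the same total per library it was under the 2-fold size (log2 0.77), as was PTPRG (log2 0.77). PARD3B rested on 1 library, since without WT replicate 1 its log2 difference was 1.59 (adjusted p = 0.17). NBEA, neurobeachin, fell from 1206 and 971 to 390 to 556 (log2 -1.22 ± 0.15, adjusted p = 1.38e-05). FHIT and WWOX, the classic fragile site genes, were not called. FHIT had 46.5 and 50.8 in WT, 240.3 and 53.0 in KO1 and 83.2 and 81.9 in KO2 (adjusted p = 0.44), and WWOX had 52.4 and 52.0 in WT and 16.9 to 33.6 in KO (log2 -1.13 ± 0.45, adjusted p = 0.060), where the groups did not overlap.

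At the threshold itself, the members just inside were ANO5 (500.9 kb, log2 0.89), SPOCK3 (501.4 kb, log2 3.17) and KCNAB1 (501.4 kb, not tested). Just outside lay DIAPH3 (498.4 kb, log2 -2.25), ITPR2 (497.8 kb, log2 -1.64) and CACNA2D1 (497.5 kb, log2 2.94).

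Of 42 listed elongation factors and topoisomerases, 38 were tested. In the KO clones 1 rose (ELL) and 2 fell (ELL2 and TOP2A), beside the 10.7% and 10.5% of all genes tested, and the median log2 difference was -0.17. ELL, a factor that suppresses polymerase pausing, went from 0 and 0 in WT to 96.4 and 78.5 in KO1 and 33.3 and 25.4 in KO2. TOP2A, the topoisomerase of dividing cells, went from 22.3 and 99.5 to 0 and 0 in KO1 and 6.13 and 1.67 in KO2. With TGF-β, where SETD2 is intact, limma also called ELL higher (51.8 and 22.7, adjusted p = 0.0039). TOP2A was called lower there as well (4.45 and 5.32, adjusted p = 0.0055). ELL had 68.1 and 91.4 in the SOX2 line, 68.8 and 46.0 in the PRRX1 line, and 0 and 2.33 in the eGFP line. In the rescue clones against KO, SSRP1, CCNT1 and TOP2A were higher and 0 were lower by the limma test. Over all genes tested, 11.3% were higher and 11.9% lower. CCNT1 was also called higher in the eGFP line than in WT (log2 2.57, adjusted p = 0.010). TOP2A was called lower in the rescue clones than in the eGFP line (log2 -2.63, adjusted p = 0.0034). SSRP1 had 244 and 386 in Rescue1 but 15.9 and 230 in Rescue2.

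Cell state differed between these groups at the same time. The summed level of 10 fibroblast or stromal markers, of which 5 rose and 1 fell, was 1544 and 13005 normalized counts in WT, 224430 and 237440 in KO1, 100420 and 104040 in KO2, 47092 and 48438 with TGF-β, and 974 to 1879 in the rescue clones. DCN made up most of the sums in the KO clones and COL1A1 most of those with TGF-β. DCN, the proteoglycan decorin, had 477 and 289 in WT, 234810 and 221610 in KO1, 98373 and 94978 in KO2, and 1049 and 1083 with TGF-β. COL1A1, a chain of type I collagen, had 11919 and 532 in WT, 1042 and 815 in KO1, 3751 and 3520 in KO2, and 46598 and 45007 with TGF-β, so that it was high in 1 WT library. Of 8 epithelial markers 6 fell and 1 rose, with sums of 36345 to 37956 in WT, 10181 to 12109 in KO1 and 19728 to 20675 in KO2. Of 7 tested neuron markers 4 rose and 1 fell, SYT1 being both a marker and a member. The sum over the 10 listed was 4043 to 4585 in WT, 3461 to 3510 in KO1 and 5599 to 5670 in KO2, and NEFL, a neurofilament, made up most of it (3915 and 4453 in WT, 2734 and 2632 in KO1, 5072 and 4937 in KO2). SNAP25, of vesicle fusion, had 4.83 and 2.77 in WT, 600.01 and 655 in KO1 and 391 and 430.3 in KO2. STMN2 and GAP43, of growing axons, were at 0 in WT, with STMN2 at 53.0 to 117 and GAP43 at 26.5 to 84.4 in the KO libraries, while ELAVL3, ELAVL4 and DCX were at 0 in both libraries of every group. The part of cell state in the members' differences was not tested. Proximal tubule markers summed to 4230 to 8973 in all groups, with HNF4A, SLC22A6 and SLC22A8 at 0 in every group.

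The clones themselves differed. In KO1 against KO2, 7 of the 218 members were higher and 14 lower, beside 2.48% and 4.49% of all genes tested, with a median of -0.25. Without KO1 replicate 2 the share higher was 1.38% instead of 3.21%, and without KO2 replicate 1 or 2 the share lower was 3.67% or 2.29% instead of 6.42%. LRMDA had 210 and 192 normalized counts in KO1 and 6.39 and 9.20 in KO2, on either side of WT (26.8 and 22.2, log2 4.54 ± 0.67 SE, adjusted p = 0.00030). THSD4 differed less, with 3511 and 3569 in KO1 and 4790 and 4951 in KO2 (log2 -0.46 ± 0.24, adjusted p = 0.22), beside 1674 and 3076 in WT. RELN was higher in KO2 than in KO1 (log2 -2.37 ± 0.76 for KO1 minus KO2, adjusted p = 0.047). These calls rested on the spread shared by all 22 libraries: with only the 4 libraries in the fit, limma called 0 members, 1 gene of all, and 31 members had an unadjusted p under 0.05 with a log2 change over 1.

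The rescue clones address whether members return towards WT when SETD2 is put back. The sources used here do not make clear from which KO clone they derive, so the mean of both was the reference. Against the mean of both KO clones, 24 members were higher (11.01%) and 44 lower (20.2%), beside 11.3% and 11.9% of all genes tested, with a median log2 difference of -0.17. The members' share was above that of all genes on the lower side, which is a description only. A member with no reads in the rescue clones is tested only through groups in which it is higher. Its call here could only be downward. The KO libraries are also the same as in the comparison with WT. With the same total per library the split was 38 and 31 (55.1% of the members' calls higher instead of 35.3%, and 70.5% instead of 48.7% over all genes), with a median of 0.19 for the members and 0.37 for all genes. Against KO2 alone, the median was -0.38 with 21 higher and 44 lower (background 7.84% and 9.65%), and against KO1 alone 27 were higher and 39 lower (background 13.7% and 13.1%). From 1000 kb, 4 members were higher and 11 lower with a median of -0.61. Serum cannot be told apart from SETD2 in these values.

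The members high in both KO clones took different levels in the rescue clones. Both comparisons use the KO libraries, so the levels are set side by side as values. LRP1B had 3.00 and 0 normalized counts in Rescue1 and 1.75 and 1.06 in Rescue2 (log2 -4.24 ± 0.59, adjusted p = 3.32e-05), near its WT level of 0. GRIK2 had 3.82 to 14.6 (log2 -3.90 ± 0.67, adjusted p = 0.00022). CSMD2 differed between the rescue clones, with 2.11 and 2.81 in Rescue1 and 65.5 and 32.6 in Rescue2. ELMO1 stayed at 260.2 to 312 in the rescue clones, within the range of the KO libraries (log2 0.12 ± 0.35, adjusted p = 0.80) and above the eGFP line (5.88 and 7.17, log2 5.23 ± 0.43, adjusted p = 4.10e-07).

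The members low in both KO clones were also at different levels in the rescue clones. RIMS1 had 351 and 499.7 normalized counts in Rescue1 and 301 and 289 in Rescue2 (log2 4.84 ± 0.22 over KO, adjusted p = 1.95e-10), beside 312 and 241 in the eGFP line. KAZN had 981 to 1693 (log2 1.72 ± 0.084, adjusted p = 4.25e-10), beside 1685 and 1629. RYR3 had 2.56 to 7.77, against 287 and 190 in the eGFP line (log2 -5.39 ± 0.49, adjusted p = 1.17e-06). Outside these sets, TENM2 had 58.0 and 21.9 in WT, at most 17.8 in the KO libraries and 487 to 901 in the rescue clones, above every other group (log2 6.92 ± 0.65 over KO, adjusted p = 5.17e-07). ANK3, ankyrin-G, had 694 to 1129 in the rescue clones, against 0 to 90.5 in KO (log2 5.42 ± 0.81, adjusted p = 6.36e-05). GRM7, a metabotropic glutamate receptor, had at most 0.685 in the rescue clones, against 63.4 and 236 in KO1 and 5.17 and 320 in KO2 (log2 -5.94 ± 1.45, adjusted p = 0.0037). Some members therefore returned to the level of WT or eGFP cells, some were not called, and some passed beyond.

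Against the eGFP line, the comparison at equal serum, the rescue clones had 31 members higher and 28 lower, beside 6.47% and 6.66% of all genes tested, and a median of -0.11. Of the 34 members called higher in both KO clones, 14 were called higher here too, among them ANK2, NTM, FOXP2, ROBO1 and LINGO2. Others of the 34, such as PDE4B, SORCS2 and NCKAP5, were called lower here. TENM3, another teneurin, had 89.8 to 144 in the rescue clones and 0 and 2.55 in the eGFP line (log2 5.91 ± 0.78, adjusted p = 4.57e-05), and 13.7 to 83.2 in KO. SPOCK3, a secreted proteoglycan, had 20.9 to 32.8 and 0 and 0 (at least 8.29-fold higher). FGF14, a modulator of sodium channels, was at 0 in all 4 rescue libraries and at 10.8 and 24.2 in the eGFP line (at least 5.20-fold lower). NEBL, a nebulin relative, was lower too (log2 -4.00 ± 0.89), but not without eGFP replicate 2 (adjusted p = 0.083). PTPRM was lower, with 2912 to 3608 in the rescue clones and 9317 and 9657 in the eGFP line (log2 -1.55 ± 0.082, adjusted p = 3.40e-09). The adhesion and synaptic list had 9 higher and 3 lower of 29, and the channel list 3 higher and 5 lower of 14.

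The libraries labelled KO2 rescue, in which SETD2 was no higher than in KO2, had 4 members higher and 8 lower than KO2, beside 1.65% and 2.52% of all genes tested, with a median of 0.01. The share higher went from 1.83% to 0.917% without KO2 replicate 1 or without replicate 2 of the labelled libraries. Here DAB1 had 3.82 and 17.1 normalized counts (log2 -5.07 ± 0.76, adjusted p = 0.00043) and PDE4B 26.7 and 53.1 (log2 -3.31 ± 0.35, adjusted p = 1.77e-05). NCKAP5 had 18.0 and 4.73, against 208 and 179 in KO2 (log2 -4.22 ± 0.61, adjusted p = 0.00030). RIMS1 was higher with 57.8 and 50.03 (log2 2.45 ± 0.31, adjusted p = 0.00011), as was KAZN with 1180 and 1151 (log2 1.20 ± 0.12, adjusted p = 8.00e-06). FAT3, a giant atypical cadherin, had 517 and 928, against 243 and 147 in KO2 (log2 1.87 ± 0.56, adjusted p = 0.048), and lost its call without any 1 of the 4 libraries (adjusted p from 0.070 to 0.31). LRP1B, CSMD2 and LINGO2 were not called and remained far above WT, with 19.9 and 71.8, 123 and 89.5, and 35.9 and 30.3.

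**Figure D4:**
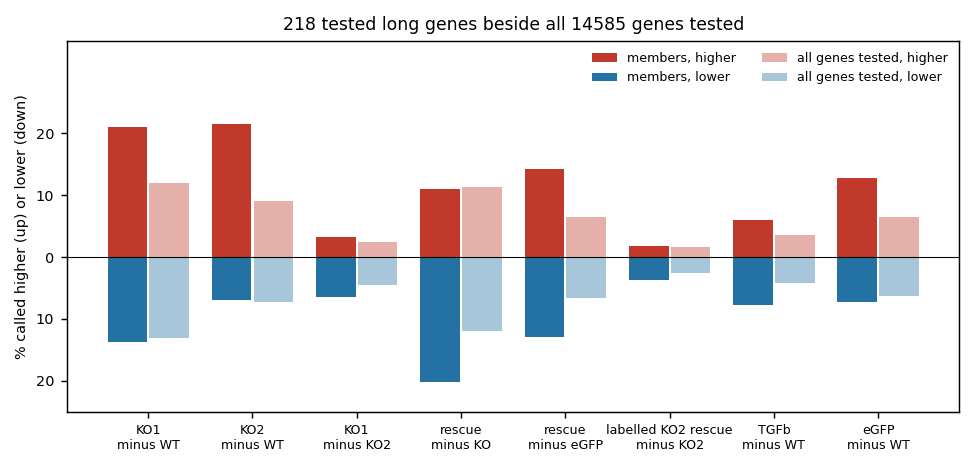
Percent of the 218 tested members (dark bars) and of all 14585 genes tested (pale bars) called higher (upward) or lower (downward) in 8 comparisons. Members exceed all genes on the higher side in KO1 and KO2 against WT, on the lower side in the rescue clones against KO, and on both sides in the rescue clones against the eGFP line. They also do so in cells with intact SETD2, on the higher side in the eGFP line and on both sides with TGF-β, each against WT.

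TGF-β, which raises mesenchymal genes with SETD2 intact (1955 and 2021 normalized counts of SETD2), gave 13 members higher and 17 lower than WT, beside 3.58% and 4.26% of all genes tested, and a median of -0.06. Without WT replicate 2, 4.59% were lower instead of 7.80%. With the same total per library the calls were 11 and 31 (26.2% of the members' calls higher instead of 43.3%, and 27.7% instead of 45.7% over all genes). PDE4D was higher with TGF-β at 2396 and 2231 (log2 1.78 ± 0.22, adjusted p = 4.68e-05). NTM rose to 1679 and 1749 (log2 2.07 ± 0.24, adjusted p = 2.73e-05). RELN, high in the KO clones, was at 0 and 2.15 (log2 -3.62 ± 0.76, adjusted p = 0.0037), which lost its call without TGF-β replicate 1 (adjusted p = 0.060). SORCS3, a relative of SORCS2, went from 0 and 0 to 73.5 and 35.4 (at least 20.6-fold higher, adjusted p = 0.00053). TSHZ2, a zinc-finger factor whose rise in the KO clones rested on WT replicate 1, went from 10.7 and 24.6 in WT to 0 and 0 (at least 5.50-fold lower, adjusted p = 0.0031). PLXNA4, a semaphorin co-receptor, went from 144 and 2.15 to 565 and 419 and SGCD, a sarcoglycan, from 16.4 and 0 to 53.3 and 70.6. Both were called, but without WT replicate 2 their log2 changes were 1.75 and 1.84 (adjusted p = 0.35 and 0.36). ENOX1 was called lower (log2 -3.62 ± 1.03, adjusted p = 0.024), and lost its call without any 1 of the 4 libraries (adjusted p from 0.071 to 0.11). KAZN fell to 346 and 353 (log2 -1.66 ± 0.12, adjusted p = 2.91e-07). With only the 4 libraries of these groups in the fit, limma called 0 genes, and 38 members had an unadjusted p under 0.05 with a log2 change over 1.

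The eGFP line, which differs from WT by serum and vector, had 28 members higher and 16 lower, beside 6.49% and 6.24% of all genes tested, and a median of 0.27. The share higher, 12.8%, was 6.88% without WT replicate 1 and 6.42% without eGFP replicate 1, and the share lower, 7.34%, was 4.13% without eGFP replicate 2. Under 10 kb 5.39% of genes were higher and 11.7% lower, at 500 to 1000 kb 13.6% and 7.35%, and from 1000 kb 9.76% and 7.32% (4 and 3 of 41). SORCS2 (log2 5.60 ± 0.24 over WT), RELN (4.89 ± 0.76), PDE4B (4.28 ± 0.35) and CDH13 (1.76 ± 0.10) were called here and in the KO clones, against the same WT libraries. DAB1, LRP1B, LINGO2 and ELMO1 were not called in the eGFP line, with at most 7.17 normalized counts in either library.

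In the SOX2, OCT2 and PRRX1 lines against the eGFP line, the limma test called 0 of the 218 members, beside 0.0206%, 0.0343% and 0.0411% of all genes tested in either direction. An unadjusted p under 0.05 was reached by 16, 13 and 15 members. With only the libraries compared in the fit, it called 0 genes in each of the 3.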

How the data were processed

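RNA of 22 RPTEC libraries, 2 in each of 11 groups taken from the labels, was sequenced from a stranded poly(A) protocol. The authors quantified transcripts with Salmon 1.9.0 against Ensembl GRCh38 cDNA and used DESeq2 1.26.0. The file the authors deposited holds log2 values on a variance-stabilized scale (11.3 to 21.3), with the transformation itself not given in the sources used here. The values were converted back to counts normalized by size factors, whose smallest steps gave the approximate relative depth of each library and hence the floor of 3 reads, 2.52 to 4.08 normalized counts per group. Intervals from this floor cover counting error only. Between duplicates, members with a mean of at least 100 differed by a median of 0.116 to 0.335 on the log2 scale, most in WT and KO1.

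Spans came from GENCODE 44, to which 33878 of 36859 gene identifiers matched. Group means were fitted over all 22 libraries with limma 3.58.1 (trend, R 4.3.3) on log2(normalized count + 1), without a block, and p-values were adjusted by Benjamini-Hochberg over 14585 genes. In data simulated for KO against WT, 58.5% of 200 genes planted at a log2 change of 2 were recovered. The members and all gene lists were chosen with earlier results of these data known, and lists are described by counts and medians without a test. Genes named are the largest rises and falls in both KO clones and in each other comparison, the widest and most abundant members, those at the threshold and those at fragile sites. CACNA2D3, ANK2, ROBO1, FOXP2 and the genes given only by name were added as examples of their lists after their values were seen. The values of 1 further member that meets the rule are not reported here. Alternatives were other pseudocounts, filters, scalings and span limits, fits with a replicate block or with only the libraries compared, and each library left out in turn.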

Additional observations from a re-analysis of the deposited data

Results flagged for a closer look

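The test of KO1 against KO2 called 21 members. The 11 of them that the rule for named genes had picked are given here, with 1 gene just under the span threshold, since their difference from WT was not the same in the clones. Higher in KO2 were ANK3 (log2 -4.30 for KO1 minus KO2, adjusted p = 0.019), NEBL (-3.91, 0.018), CA10 (-3.87, 0.0043), FGF14 (-3.20, 0.033), RELN (-2.37, 0.047) and IMMP2L (-1.18, 0.043), as was DIAPH3 (-1.90, 2.98e-08), a formin of 498.4 kb that is no member. Higher in KO1 were LRMDA (4.54, 0.00030), PRKCA (2.93, 0.028), SPOCK3 (2.79, 0.047), PDE4B (1.42, 0.013) and DPYD (1.22, 5.81e-05). The fitted differences from WT had the same sign in both clones for RELN, PDE4B, CA10, SPOCK3, DPYD and DIAPH3, and opposite signs for ANK3 (log2 -2.44 in KO1 and 1.85 in KO2), NEBL, FGF14, IMMP2L, LRMDA and PRKCA. When each library was left out in turn for LRMDA, CA10, ANK3, NEBL, SPOCK3 and PRKCA, LRMDA and CA10 stayed called. ANK3 was lost without KO1 replicate 2 (log2 -2.12, adjusted p = 0.22) or either KO2 library, NEBL without KO1 replicate 1 (-2.17, 0.15) or either KO2 library, SPOCK3 without KO1 replicate 2 (2.21, 0.23) or KO2 replicate 1 (1.02, 0.46), and PRKCA without any 1 of the 4 (adjusted p from 0.073 to 0.12). With only the 4 libraries in the fit 0 members were called.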

How the results depend on the processing

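The direction of the members' median in KO against WT held in every setting tried except the same total per library. Nearly all calls were lost on the deposited log2 scale, which compresses low and moderate counts by construction. There, 0.917% of tested members were higher and 0% lower in KO against WT (median 0.02), 0.459% and 0% in KO1, 0.917% and 0% in KO2, 0.459% and 0% in eGFP against WT, and 0% in each direction in KO1 against KO2, rescue against KO (median -0.014), rescue against eGFP, labelled KO2 rescue against KO2, and TGF-β against WT. With only the libraries compared in the fit, 4.59% were lower in KO, 12.8% higher and 5.96% lower in KO1, 2.29% lower in labelled KO2 rescue, 3.67% higher and 2.29% lower in eGFP, and 0% in each direction in KO1 against KO2 and in TGF-β. With the same total, KO had 15.6% lower (median -0.077), rescue against KO 17.4% higher (median 0.188), and TGF-β 14.2% lower. With a mean of at least 50, KO2 had 10.9% lower, labelled KO2 rescue 3.12% higher and TGF-β 9.38% higher. Without a filter eGFP had 4.69% lower. Labelled KO2 rescue had 3.21% higher with a pseudocount of 5 and with the length and GC trend removed, and 2.77% with spans from 300 kb. Against KO2 alone the rescue median was -0.38. From 1000 kb, the medians were 0.72 (KO) and -0.61 (rescue against KO), and the shares 31.7% higher in KO1, 4.88% higher and 2.44% lower in KO1 against KO2, 4.88% higher in labelled KO2 rescue, and 2.44% higher and 4.88% lower in TGF-β.

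Leaving out 1 library at a time gave 18.8 to 25.2% higher, 9.17 to 11.9% lower and a median of 0.152 to 0.276 in KO, and a median of -0.077 (without KO1 replicate 2) to 0.134 in KO1. The range was 1.38 to 3.67% higher and 2.29 to 7.34% lower in KO1 against KO2, 0.917 to 2.75% higher in labelled KO2 rescue, 4.59 to 9.63% lower in TGF-β, 6.42 to 11% higher and 4.13 to 5.96% lower in eGFP against WT, and 0 to 0.459% higher in SOX2 against eGFP (1 member, without SOX2 replicate 2). Of the members called in KO, 38 of 53 higher and 13 of 20 lower were called in every such fit. Among single genes that were not called, DOCK1 turned to -0.044 (quantile normalization), -0.27 (same total) and -0.11 (trend removed), TBC1D5 to -0.20 (same total) and -0.017 (trend removed) with -0.091 to 0.33 over libraries left out, and PDE4D ranged from -0.62 to 0.33.

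Replicate numbers did not pair the samples: over 55 pairs of groups the correlation of same-numbered deviations ran from -0.0823 to 0.0475. The fit with the replicate block kept 24.3% higher and 9.17% lower in KO, and only FAT3 in labelled KO2 rescue against KO2 lost its call among the named genes (log2 1.87, adjusted p = 0.060). No share called moved by over 1.5 times with a pseudocount of 0.5, quantile normalization, either rescue clone alone or KO1 alone as reference. The same held without readthrough or overlapping members. It also held when the canonical transcript had to span 500 kb, a setting chosen after seeing the data. That left 160 tested members (26.2% higher, 8.75% lower in KO). The medians of KO against WT and of rescue against KO stayed within their spread over pairs of libraries in these settings. Medians of other comparisons passed that spread 3 times with quantile normalization and 4 times with the canonical span. They did so 1 time without readthrough or overlapping members. Causes of these shifts were not tested.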
